A study of Danio rerio with 12 samples.

Results

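Messenger RNA was compared between cut and uncut tails of zebrafish larvae kept in the vehicle dimethyl sulfoxide (DMSO), to ask how the tail has responded 18 h after part of it was removed. The cut DMSO group holds replicates 1, 3 and 4 and the uncut DMSO group replicates 1, 2 and 4, which are 6 of the 12 libraries of the series. Of 30258 gene IDs in the table, the 13142 that passed a filter on low counts were tested, and all of them make up the comparison. Cut larvae, of wild type genotype, lost about 200 µm of tail, up to the pigment gap, at 72 hours post fertilization (hpf), and the next 200 µm were taken for RNA at 90 hpf. Uncut larvae, also wild type, were not operated on, and tissue of the same region was collected from them at 90 hpf. Both groups were raised at 28.5 °C and had 0.1% DMSO. The other 6 libraries form the corresponding cut and uncut groups with 50 µM SB431542, an inhibitor of TGF-β type I receptors, and enter the interaction test at the end and alternative fits of all 4 groups. Each library is a pool of 100 tails. Nothing in the labels says that the pools of a group came from separate clutches, and the spread that the tests rest on is that between pools, some of which may be technical. The labels describe anaesthesia with tricaine for the excision, and whether unoperated larvae were given it at 72 hpf is not stated. Since the cut tissue is the new end of a shortened tail, any difference in position along the tail cannot be told apart from excision.

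The larval zebrafish tail regrows after amputation. Epidermal cells cover the stump and form a wound epidermis, leukocytes enter the wound, and proliferating cells of a blastema underneath rebuild the missing tissue. The tail holds a notochord, a spinal cord, segmented muscle, a double-layered epidermis and the fin fold, so RNA of all of these is read together.

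Libraries were made with a kit that reads transcripts next to the poly(A) tail, so counts do not depend on transcript length. Total counts ran from 8959094 to 11264610 in cut tails and from 7882730 to 12914981 in uncut tails. On principal components of log2 CPM, normalised read counts scaled with trimmed-mean (TMM) factors, the first component held 42.7% of the variance. It placed the cut libraries at -29.6, -38.4 and -36.8 and the uncut libraries at 36.2, 33.8 and 34.9. On the second component, with 18.0%, uncut replicate 4 lay at 44.7 and the other uncut libraries at -22.2 and -22.3. The TMM factors were 1.16, 1.21 and 1.00 in cut libraries and 0.933, 0.915 and 0.833 in uncut libraries. With them, all genes tested summed to 828586 to 996236 CPM in cut tails and 1072020 to 1200270 CPM in uncut tails. The size of small shifts shared by many genes rests on this scaling. The tissue label was borne out by its markers: the 84 skeletal muscle genes tested together reached 147677 to 209265 CPM in cut tails, against 268343 to 298796 CPM in uncut tails, and the fin fold genes and1, and2 and and3 were read in every library. Of 31 endothelial and 19 erythrocyte genes, edgeR, DESeq2 and limma-voom each called 0. An unadjusted edgeR p under 0.05 was found for 4 and 3 of them, and for 3292 of all 13142 genes tested.

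At an adjusted p under 0.05 in edgeR's quasi-likelihood test, cut tails had 836 genes higher and 573 lower, 10.7% of the genes tested (6.36% higher and 4.36% lower). By at least 2-fold, 460 were higher and 170 lower. By at least 4-fold, 132 were higher and 15 lower, and by at least 8-fold 41 were higher and 0 lower. Increases were larger than decreases, with a median log2 fold change of 1.06 among genes called higher, -0.81 among genes called lower and 0.01 over all genes tested. Decreases lay in more abundant genes: of 813 genes averaging 100 CPM or more, 57 were higher and 157 lower, while of 6937 genes between 1 and 10 CPM, 312 were higher and 88 lower. Without cut DMSO replicate 3 there were 441 higher and 248 lower genes, without uncut DMSO replicate 1 there were 523 and 334, and without uncut DMSO replicate 2 there were 536 and 367. Without cut DMSO replicate 4, 731 were higher and 776 lower. Of the 46 leading genes by fold or by absolute change, 36 passed in each of the 6 fits that left out 1 library, and 10 did not (MT-CO2, MYL1, MYL11, TNNI2, TNNT3, hmga1a, krt8, myhz2, tmsb4x and tpma). In all 16 alternative settings described below, 32 of the 46 passed. FN1 (ENSDARG00000006526), hrc, trdn and XIRP2 (ENSDARG00000091090) passed those 6 fits but not every other setting.

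**Figure D1:**
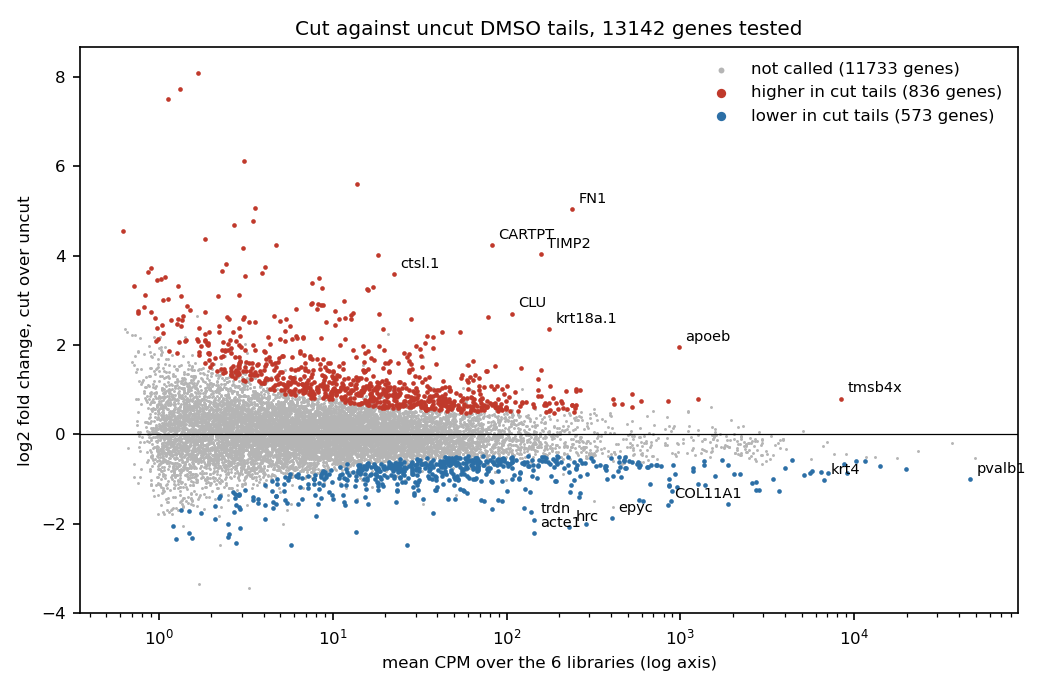
Log2 fold change of cut over uncut DMSO tails against mean CPM over the 6 libraries (log axis), 1 point per gene tested. The 836 genes higher in cut tails reach further from 0 than the 573 lower ones, which are spread more over the abundant genes on the right.

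Of the 15 called genes averaging 20 CPM or more with the largest increases, 7 are given here. FN1 (ENSDARG00000006526), which encodes fibronectin, a glycoprotein of provisional wound matrix, had 698, 440.2 and 254 CPM in cut tails, against 7.08, 14.2 and 20.8 CPM in uncut tails. All cut libraries lay far above the uncut ones, but they spread from 254 to 698 CPM, and the log2 fold change was 5.03 ± 0.60 (adjusted p = 0.00781). CARTPT (ENSDARG00000035852), a precursor of signalling peptides best known from neurons, had 108, 134 and 227 CPM in cut tails, against 6.18, 8.61 and 9.87 CPM in uncut tails, an 18.9-fold difference (adjusted p = 6.09e-06). Expression of TIMP2 (ENSDARG00000075261), which blocks matrix metalloproteinases, was tighter, with 258, 287 and 346 CPM in cut tails, against 14.7, 20.004 and 19.8 CPM in uncut tails (log2 fold change 4.03 ± 0.19, adjusted p = 4.19e-10). The extracellular chaperone gene CLU (ENSDARG00000010434) had 157, 182 and 218 CPM in cut tails, against 27.3, 29.9 and 28.48 CPM in uncut tails (log2 fold change 2.70 ± 0.17). For the Polycomb chromobox gene cbx7a (ENSDARG00000038025) the values were 93.5, 142 and 169.6 CPM in cut tails, against 16.3, 20.004 and 28.6 CPM in uncut tails (log2 fold change 2.63 ± 0.25), and for the small GTPase gene RRAD (ENSDARG00000052011) they were 39.4, 52.9 and 52.8 CPM in cut tails, against 5.66, 4.72 and 13.3 CPM in uncut tails (log2 fold change 2.57 ± 0.33). The vault protein gene MVP (ENSDARG00000021242) had 66.4, 80.1 and 65.5 CPM in cut tails, against 11.8, 11.7 and 19.3 CPM in uncut tails (log2 fold change 2.29 ± 0.20). These genes were chosen among those in which no cut library overlaps an uncut one. Of all genes tested, 16% had every cut library above every uncut one and 13.5% every cut library below.

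Of the 15 called genes averaging 20 CPM or more with the largest decreases, 5 are given here. acte1 (ENSDARG00000079111), an actin gene, had 47.4, 42.7 and 63.1 CPM in cut tails, against 197, 251 and 258 CPM in uncut tails (log2 fold change -2.203 ± 0.18, adjusted p = 6.80e-07). hrc (ENSDARG00000045947), whose product binds calcium in the sarcoplasmic reticulum, had 94.6, 80.7 and 87.4 CPM in cut tails, against 335, 415 and 358 CPM in uncut tails (log2 fold change -2.08 ± 0.16). trdn (ENSDARG00000041779) encodes triadin, which belongs to the calcium release complex of muscle, and had 71.6, 59.7 and 49.9 CPM in cut tails, against 231, 227 and 222 CPM in uncut tails (log2 fold change -1.91 ± 0.17). The uncut values of trdn differed by less than 10 CPM. map1lc3cl (ENSDARG00000075727), of the family of autophagosome proteins, had 16.2, 16.5 and 19.2 CPM in cut tails, against 50.97, 68.8 and 55.1 CPM in uncut tails (log2 fold change -1.75 ± 0.18). epyc (ENSDARG00000056950), a small proteoglycan of cartilage, had 185, 154 and 182 CPM in cut tails, against 687, 695 and 519.7 CPM in uncut tails (log2 fold change -1.87 ± 0.17). The same rule of no overlap chose these decreases.

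**Figure D2:**
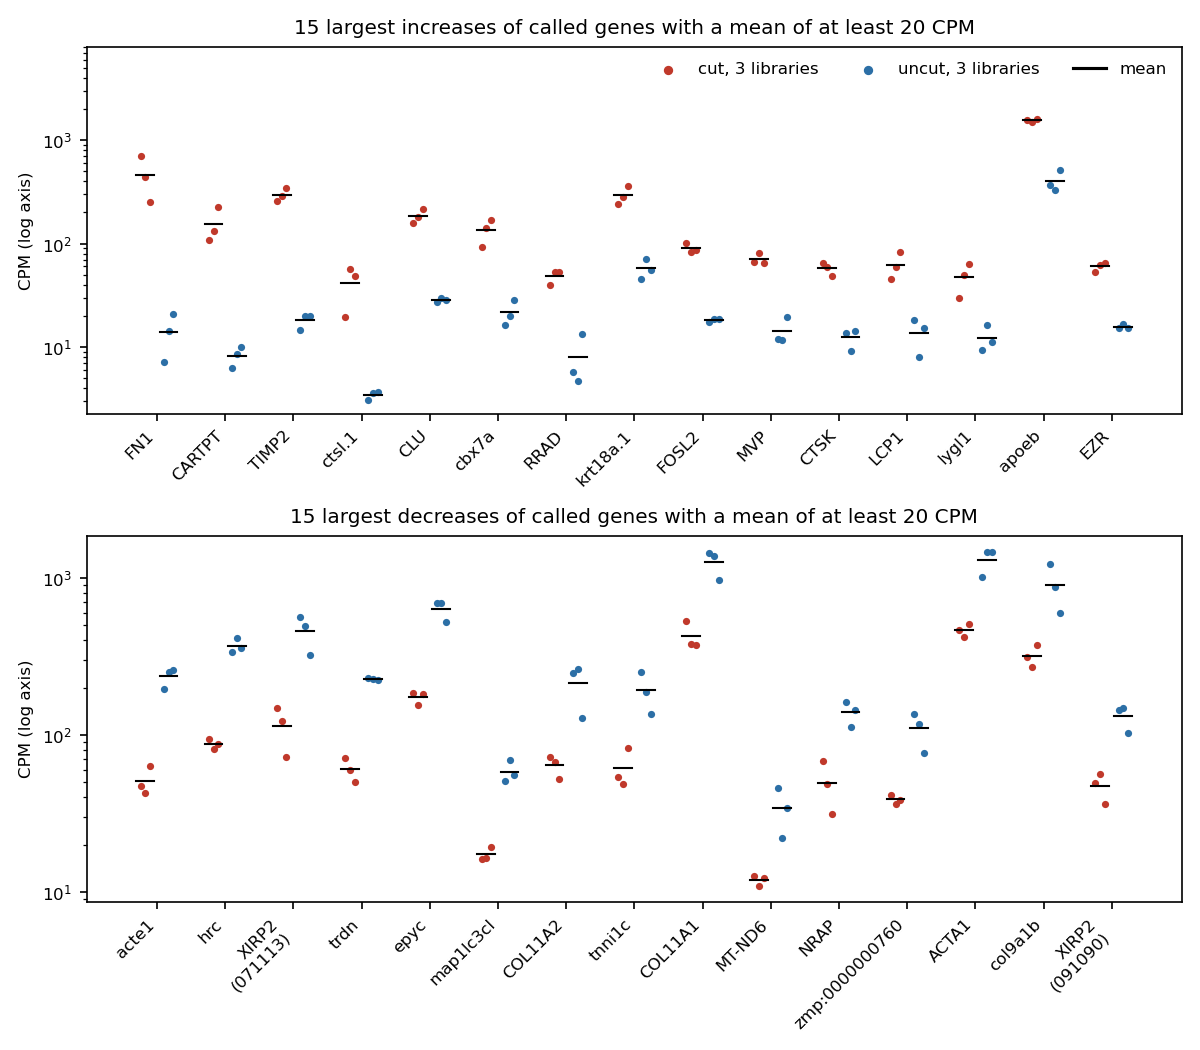
CPM (log axis) of the 15 largest increases (top) and the 15 largest decreases (bottom) among called genes averaging 20 CPM or more with no overlap between groups and no clone or locus symbol, with 3 cut libraries left of 3 uncut libraries for each gene and a bar at each mean. FN1 has the widest range in CPM among its cut libraries, from 254 to 698 CPM.

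Genes that degrade or remodel matrix were partly raised. Of 28 matrix proteases and inhibitors tested, 9 rose and 2 fell, with a median log2 fold change of 0.22. The gelatinase gene MMP9 (ENSDARG00000042816) had 12.8, 18.1 and 10.6 CPM in cut tails, against 1.80, 0.833 and 1.303 CPM in uncut tails and the collagenase gene mmp13a (ENSDARG00000012395) had 13.1, 20.3 and 10.19 CPM in cut tails, against 1.80, 2.08 and 1.86 CPM in uncut tails. The sheddase gene adam8a (ENSDARG00000001452) rose 6.57-fold, and the membrane-bound metalloproteinase gene MMP14 (ENSDARG00000008388) rose 2.04-fold. The decreases were in mmp30 and in PLAU (ENSDARG00000039145), a plasminogen activator gene with 6.41, 6.40 and 5.05 CPM in cut tails, against 11.7, 11.7 and 10.1 CPM in uncut tails, whose related gene plaua (ENSDARG00000075265) rose at a low level, with 1.43, 2.04 and 2.57 CPM in cut tails, against 0.129, 0.417 and 0.186 CPM in uncut tails. Both decreases were lost without cut replicate 3, uncut replicate 1 or uncut replicate 2, and that of mmp30 also without cut replicate 4 or uncut replicate 4.

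Of 37 wound matrix genes, 8 rose and 1 fell, with a median log2 fold change of 0.19. The summed level was 3238 to 3827 CPM in cut tails, against 3486 to 3766 CPM in uncut tails. The most abundant members, POSTN (ENSDARG00000104267), SPARC and TGFBI, lay lower in every cut library but edgeR did not call them. Their log2 fold changes were -0.47, -0.49 and -0.38. Besides the FN1 gene above, another fibronectin gene, FN1 (ENSDARG00000019815), had 11.96, 10.6 and 7.001 CPM in cut tails, against 4.25, 5.14 and 3.91 CPM in uncut tails (log2 fold change 1.16 ± 0.28). Osteopontin, spp1 (ENSDARG00000044276), had 6.65, 4.73 and 8.77 CPM in cut tails, against 0, 0.417 and 0.279 CPM in uncut tails, and the hyaluronan receptor gene cd44a (ENSDARG00000087863) had 3.88, 2.41 and 7.36 CPM in cut tails, against 0.644, 0.139 and 0.186 CPM in uncut tails, both at low levels. THBS1 (ENSDARG00000103775), a thrombospondin, rose 2.02-fold and the elastic fibre gene EFEMP2 (ENSDARG00000094324) 2.96-fold, whereas the microfibril gene mfap2 (ENSDARG00000059367) fell 1.55-fold. The calls of mfap2 and of this FN1 gene were lost without cut replicate 1, cut replicate 3 or uncut replicate 1, and that of mfap2 also without uncut replicate 2. Tenascin, a matrix glycoprotein of regenerating fins, was not called, with 104, 99.1 and 98.3 CPM in cut tails and 101, 63.9 and 63.9 CPM in uncut tails for TNC (ENSDARG00000021948). Of 21 genes of interstitial collagens and their turnover, 4 rose and 0 fell, with a median log2 fold change of -0.12. The increases were the collagenolytic cathepsin gene CTSK, OGN, COL6A3 and COL12A1. They numbered 1 without uncut replicate 1, and 2 without cut replicate 1, cut replicate 3, uncut replicate 2 or uncut replicate 4. The 3 collagen I genes had log2 fold changes of -0.37, -0.37 and -0.46 for COL1A1, COL1A2 and col1a1a, and edgeR and limma-voom called none, whereas DESeq2 called all 3 lower. Of 32 basement membrane genes, 1 rose and 2 fell (9.38%, against 10.7% of all genes tested), the decreases being COL4A4 and col7a1. The increase was lost without uncut replicate 2 or uncut replicate 4, the COL4A4 call without cut replicate 1, 3 or 4 or uncut replicate 1, and DESeq2 called 0 higher and 5 lower. col7a1 (ENSDARG00000021720), which encodes the anchoring fibril collagen under the epidermis, had 7.68, 4.36 and 2.57 CPM in cut tails, against 26.8, 24.2 and 16.7 CPM in uncut tails (log2 fold change -2.19 ± 0.33).

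Of 21 macrophage genes tested, 16 were higher and 0 lower, all 21 had positive log2 fold changes, and the median was 1.88, against 0.01 over all genes. The summed level was 1798 to 1988 CPM in cut tails, against 405 to 594 CPM in uncut tails. In pools of whole tissue, more cells of a type and more RNA per cell cannot be told apart, and the same holds for fewer cells and less RNA. The lipid carrier apoeb (ENSDARG00000040295) had 1556, 1495 and 1613 CPM in cut tails, against 369.7, 327 and 513 CPM in uncut tails and made up most of that sum (log2 fold change 1.95 ± 0.19). The transcription factor of the myeloid lineage SPI1 (ENSDARG00000000767) had 16.1, 24.4 and 21.7 CPM in cut tails, against 5.15, 4.86 and 6.70 CPM in uncut tails (log2 fold change 1.88 ± 0.24). The progranulin gene grna.1 (ENSDARG00000089362) had 32.5, 25.5 and 44.9 CPM in cut tails, against 1.16, 2.36 and 2.70 CPM in uncut tails (log2 fold change 4.01 ± 0.30), and the actin-bundling leukocyte gene LCP1 (ENSDARG00000023188) had 45.4, 59.2 and 82.0 CPM in cut tails, against 18.1, 7.92 and 15.2 CPM in uncut tails (log2 fold change 2.17 ± 0.29). The pan-leukocyte gene ptprc (ENSDARG00000071437), whose call was lost without uncut replicate 1, was low but separate, with 4.12, 3.90 and 4.96 CPM in cut tails, against 1.16, 1.53 and 1.68 CPM in uncut tails.

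Of 19 neutrophil genes, 9 rose and 0 fell, but the members differed. TIMP2, MMP9, mmp13a and adam8a also belong to the matrix proteases and inhibitors above, and beside them the increases include cyba, srgn, npsn and nccrp1. The granule protease gene npsn (ENSDARG00000010423) had 43.003, 56.5 and 33.7 CPM in cut tails, against 15.4, 17.8 and 20.9 CPM in uncut tails (log2 fold change 1.29 ± 0.20), and cyba (ENSDARG00000018283), a subunit of the NADPH oxidase, had 4.59, 7.51 and 7.18 CPM in cut tails, against 1.03, 1.11 and 2.98 CPM in uncut tails. The lysozyme gene lyz (ENSDARG00000057789) was not called, with 385, 302 and 292 CPM in cut tails and 341, 303 and 435 CPM in uncut tails, ranges that overlap. Complement gave 3 increases and 0 decreases among 8. The early component c4b (ENSDARG00000038424) had 27.1, 26.7 and 27.6 CPM in cut tails, against 1.16, 0.278 and 0.279 CPM in uncut tails, c7a (ENSDARG00000042172) of the membrane attack complex 27.4, 16.6 and 16.4 CPM in cut tails, against 3.09, 4.45 and 2.61 CPM in uncut tails, and factor D, cfd (ENSDARG00000039579), 246, 319 and 212 CPM in cut tails, against 168, 135 and 160.5 CPM in uncut tails. The c4b level was low in every uncut library and nearly equal among cut libraries. The calls of cfd (without cut replicate 3 or uncut replicate 2) and nccrp1 (without uncut replicate 1) were lost with 1 library left out.

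Lysosomal genes gave 13 increases and 1 decrease among 37, with a median log2 fold change of 0.60. Of 13 cathepsins, the proteases of the lysosome, 10 rose and 1 fell, with a median of 1.199. ctsl.1 (ENSDARG00000003902) had 19.5, 56.2 and 48.9 CPM in cut tails, against 3.09, 3.61 and 3.63 CPM in uncut tails (log2 fold change 3.58 ± 0.39). CTSK (ENSDARG00000040251) had 64.5, 59.7 and 48.3 CPM in cut tails, against 13.6, 9.17 and 14.2 CPM in uncut tails (log2 fold change 2.21 ± 0.20). CTSB, CTSC and CTSZ rose 2.32-, 2.30- and 2.04-fold, and ctsf was the member that fell, 1.40-fold, a call kept only in the fit without cut replicate 4 among those that left out 1 library. The macrophage sum rose in the same libraries, as given above, and its part in the lysosomal increases was not tested. The macrophage and lysosomal lists share members, among them grna.1 and ctss2.1.

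Of 22 genes tested of cytokines, chemokines, receptors and other inflammatory mediators, 5 rose and 0 fell. The share called was 22.7%, against 10.7% of all genes tested. The increases were cxcl19, cxcl18b, tnfrsf1a, CXCL12 and LTA4H, which encodes an enzyme of leukotriene synthesis. The CXCL12 call was lost without cut replicate 3, uncut replicate 1 or uncut replicate 4. The LTA4H call was lost without cut replicate 3 or 4 or uncut replicate 1 or 2. The list's count was 2 without cut replicate 3 and 3 without uncut replicate 1, uncut replicate 2 or uncut replicate 4. CXCL12 (ENSDARG00000037116), a chemokine for leukocytes and progenitor cells, had 90.6, 88.5 and 95.7 CPM in cut tails, against 53.8, 68.3 and 58.6 CPM in uncut tails. il1b (ENSDARG00000098700), the interleukin-1β gene, was not called, with 5.54, 5.94 and 4.52 CPM in cut tails and 6.82, 6.67 and 9.87 CPM in uncut tails. il11a and tnfa had a count of 0 in all 6 libraries. Of 20 genes of IL-6 family signalling, 6 rose and 0 fell, with a median log2 fold change of 0.94. The feedback inhibitor SOCS3 (ENSDARG00000026611) had 33.3, 41.6 and 21.3 CPM in cut tails, against 5.41, 3.195 and 5.96 CPM in uncut tails (log2 fold change 2.70 ± 0.28). The shared receptor il6st (ENSDARG00000104693) had 97.1, 89.3 and 96.2 CPM in cut tails, against 26.3, 34.3 and 52.03 CPM in uncut tails, the receptor gene lifrb (ENSDARG00000039863) 11.09, 7.14 and 11.96 CPM in cut tails, against 2.32, 1.94 and 2.23 CPM in uncut tails, and the kinase gene JAK1 (ENSDARG00000020625) 185, 213 and 212 CPM in cut tails, against 98.5, 96.4 and 109 CPM in uncut tails. STAT3, the transcription factor they signal through, rose 2.22-fold at a low level (adjusted p = 0.0422). Its call was lost in 5 of the 6 fits that left out 1 library, all but that without uncut replicate 4, and limma-voom did not call it. crlf1a, a cytokine receptor-like factor, rose 2.40-fold.

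Of 31 AP-1 and immediate early genes, 5 rose and 0 fell, with a median log2 fold change of -0.19. The share called was 16.1%, against 10.7% of all genes tested. FOSL2 (ENSDARG00000040623) had 102, 82.4 and 85.9 CPM in cut tails, against 17.5, 18.8 and 18.6 CPM in uncut tails (log2 fold change 2.30 ± 0.17, adjusted p = 1.30e-07) and JUNB (ENSDARG00000074378) had 29.5, 27.5 and 40.5 CPM in cut tails, against 4.25, 6.67 and 7.82 CPM in uncut tails (log2 fold change 2.36 ± 0.24), while ATF3, FOSL1 and mcl1a rose by less than 2-fold. FOS was not called, with 29.2, 17.99 and 20.9 CPM in cut tails and 16.99, 61.8 and 25.7 CPM in uncut tails. FOSL2 and JUNB passed with any 1 library left out and mcl1a in none of those fits. The count was 3 without cut replicate 4, without uncut replicate 1 or without uncut replicate 4. Coagulation and transglutaminase genes gave 5 increases and 3 decreases among 14: f13a1b, the clot-stabilizing factor XIII subunit, had 15.8, 23.4 and 26.5 CPM in cut tails, against 3.22, 3.89 and 3.26 CPM in uncut tails, and f5, a clotting cofactor, had 9.58, 11.6 and 11.6 CPM in cut tails, against 3.99, 2.08 and 1.40 CPM in uncut tails.

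Genes with known roles in fin regeneration gave 18 increases and 0 decreases among 37, with a median log2 fold change of 0.60, and 10 increases without uncut replicate 1. FN1, TIMP2, MMP9, mmp13a, JUNB, krt18a.1 and MVP, given above or below, belong to it. The smooth muscle and actin-binding gene TAGLN (ENSDARG00000045408) had 16.3, 15.9 and 20.5 CPM in cut tails, against 4.89, 2.92 and 5.21 CPM in uncut tails, and the pluripotency-associated zinc finger gene SALL4 (ENSDARG00000044485) had 45.5, 38.9 and 55.7 CPM in cut tails, against 31.02, 31.1 and 30.3 CPM in uncut tails. The homeobox gene msx2b (ENSDARG00000101023), expressed in fin blastema, had 37.6, 25.04 and 29.8 CPM in cut tails, against 21.8, 19.6 and 18.1 CPM in uncut tails. Of the fits that left out 1 library, SALL4 and msx2b passed only in that without cut replicate 3. Of 11 fin fold structural genes, edgeR and limma-voom called 0 and DESeq2 1. An unadjusted edgeR p under 0.05 was found for 3 of them, and for 3292 of all 13142 genes tested. The fin fold genes tested include the actinotrichia proteins and1, at 715, 765 and 670.2 CPM in cut tails and 759.5, 853 and 674 CPM in uncut tails, and and2, at 1509, 1453 and 1224 CPM in cut tails and 1559, 1432 and 1735 CPM in uncut tails.

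Among cell cycle genes, calls were in 1 direction. Of 80 mitosis genes, 37 rose and 0 fell, 77 had positive log2 fold changes and the median was 0.98. Of 55 DNA replication genes, 17 rose and 0 fell, 53 were positive and the median was 0.66. The mitotic kinase gene plk1 (ENSDARG00000058471) had 27.96, 31.7 and 29.9 CPM in cut tails, against 11.07, 10.1 and 8.66 CPM in uncut tails (log2 fold change 1.59 ± 0.19), and the cyclin gene CCNB1 (ENSDARG00000051923) had 11.96, 13.1 and 12.8 CPM in cut tails, against 5.66, 3.47 and 3.54 CPM in uncut tails. The cytokinesis kinesin gene KIF23 (ENSDARG00000014943) had 6.18, 9.09 and 9.31 CPM in cut tails, against 1.16, 1.25 and 2.98 CPM in uncut tails. Of the replication genes, the sliding clamp gene PCNA (ENSDARG00000054155) had 249, 252 and 377 CPM in cut tails, against 173, 134 and 142 CPM in uncut tails, and the ribonucleotide reductase subunit genes RRM1 and RRM2 rose 2.31- and 2.44-fold. Thymidylate synthase, TYMS (ENSDARG00000042894), had 10.5, 9.55 and 10.5 CPM in cut tails, against 4.51, 2.36 and 1.68 CPM in uncut tails. Counts fell to 18 mitosis genes without cut replicate 3 and 24 without uncut replicate 2, and to 9 replication genes without either of these.

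Calls among genes of protein folding and turnover were nearly all increases. Of 70 genes of folding and secretion in the endoplasmic reticulum, 26 rose and 2 fell, and 15 rose without cut replicate 3 and 17 without uncut replicate 2. The disulfide isomerase gene PDIA3 (ENSDARG00000102640) had 166, 233 and 239.7 CPM in cut tails, against 80.3, 94.6 and 96.1 CPM in uncut tails, the chaperone gene HYOU1 (ENSDARG00000013670) 29.3, 29.8 and 26.9 CPM in cut tails, against 10.4, 10.4 and 9.77 CPM in uncut tails and the secreted stress factor MANF (ENSDARG00000063177) 27.7, 22.9 and 25.3 CPM in cut tails, against 8.50, 7.501 and 7.35 CPM in uncut tails. CHAC1 and CDNF were the decreases, by 1.70- and 2.01-fold, and both were lost without cut replicate 3. Of 48 proteasome genes, 25 rose and 0 fell, and all 48 had positive log2 fold changes, with a median of 0.59. The 20S core had 10 of 15 called and the regulatory cap 12 of 24. The ATPase gene PSMC4 (ENSDARG00000027099) had 75.2, 83.8 and 82.2 CPM in cut tails, against 34.2, 40.8 and 44.2 CPM in uncut tails (log2 fold change 1.01 ± 0.16). Fold changes of called proteasome genes ran from 1.45 for PSMA1 to 2.19 for PSME4, and both of these calls were lost without cut replicate 3, uncut replicate 1 or uncut replicate 4. The number rising was 12 without cut replicate 3, 10 without uncut replicate 1, 11 without uncut replicate 2 and 16 without uncut replicate 4. Of 41 heat shock genes 5 rose and 0 fell, and 2 rose without cut replicate 3 or uncut replicate 1 and 1 rose without uncut replicate 2.

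Of 89 actin and cytoskeleton genes, 33 rose and 4 fell, and 21 rose without uncut replicate 2, while the decreases numbered 0 without cut replicate 3, 1 without uncut replicate 1 or 4 and 2 without cut replicate 1. The Arp2/3 complex, which nucleates branched actin filaments, had 7 of 11 subunit genes higher and 0 lower. Its gene ACTR2 (ENSDARG00000052438) had 33.97, 39.6 and 33.9 CPM in cut tails, against 11.8, 10.7 and 13.03 CPM in uncut tails (log2 fold change 1.59 ± 0.18), and ARPC5 (ENSDARG00000039142) had 58.9, 67.5 and 51.05 CPM in cut tails, against 20.6, 20.1 and 18.7 CPM in uncut tails. The membrane linker gene EZR (ENSDARG00000020944) had 52.5, 62.1 and 65.5 CPM in cut tails, against 15.3, 16.7 and 15.2 CPM in uncut tails (log2 fold change 1.93 ± 0.17). The abundant genes tmsb4x (ENSDARG00000077777), which binds actin monomers, and actb1 (ENSDARG00000037746), a cytoplasmic actin, rose by 1.74- and 1.74-fold, tmsb4x not without uncut replicate 2. The tubulin genes went both ways, with 4 higher and 3 lower of 15. The macrophage list rose in the same libraries, and its part in these increases was not tested.

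Keratin genes split. Of 15 keratin and cyt1 genes, the intermediate filaments of the epidermis, 5 rose and 7 fell, and over the 44 keratin and periderm genes 7 rose and 14 fell. The increases numbered 4 without uncut replicate 1 or without uncut replicate 2. Simple-epithelium keratins were among the increases: krt18a.1 (ENSDARG00000018404) had 242, 281 and 358 CPM in cut tails, against 45.2, 71.5 and 55.9 CPM in uncut tails (log2 fold change 2.35 ± 0.20) and krt8 (ENSDARG00000058358) had 909.6, 956 and 1323 CPM in cut tails, against 503, 647 and 739 CPM in uncut tails (log2 fold change 0.75 ± 0.19). The periderm keratin krt4 (ENSDARG00000017624) had 5216, 3903 and 4246 CPM in cut tails, against 7436, 7931 and 11661 CPM in uncut tails (log2 fold change -1.02 ± 0.21). krt17 (ENSDARG00000094041) had 723, 819.5 and 861 CPM in cut tails, against 1329, 1552 and 2269 CPM in uncut tails, and the epidermal keratin krt5 (ENSDARG00000058371) had 974, 755 and 844 CPM in cut tails, against 1364, 1381 and 1786 CPM in uncut tails. Uncut replicate 4 held the highest level of krt4, krt5, krt17 and cyt1. The summed level of the list was 14111 to 17281 CPM in cut tails, against 22936 to 35394 CPM in uncut tails. Desmosome genes also differed: DSP, the linker desmoplakin, fell 1.48-fold, whereas JUP, plakoglobin, rose 1.41-fold. The DSP call was lost without cut replicate 3, uncut replicate 2 or uncut replicate 4, the JUP call in each fit without 1 library but that without cut replicate 4, and the krt8 call without uncut replicate 1 or 2.

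**Figure D3:**
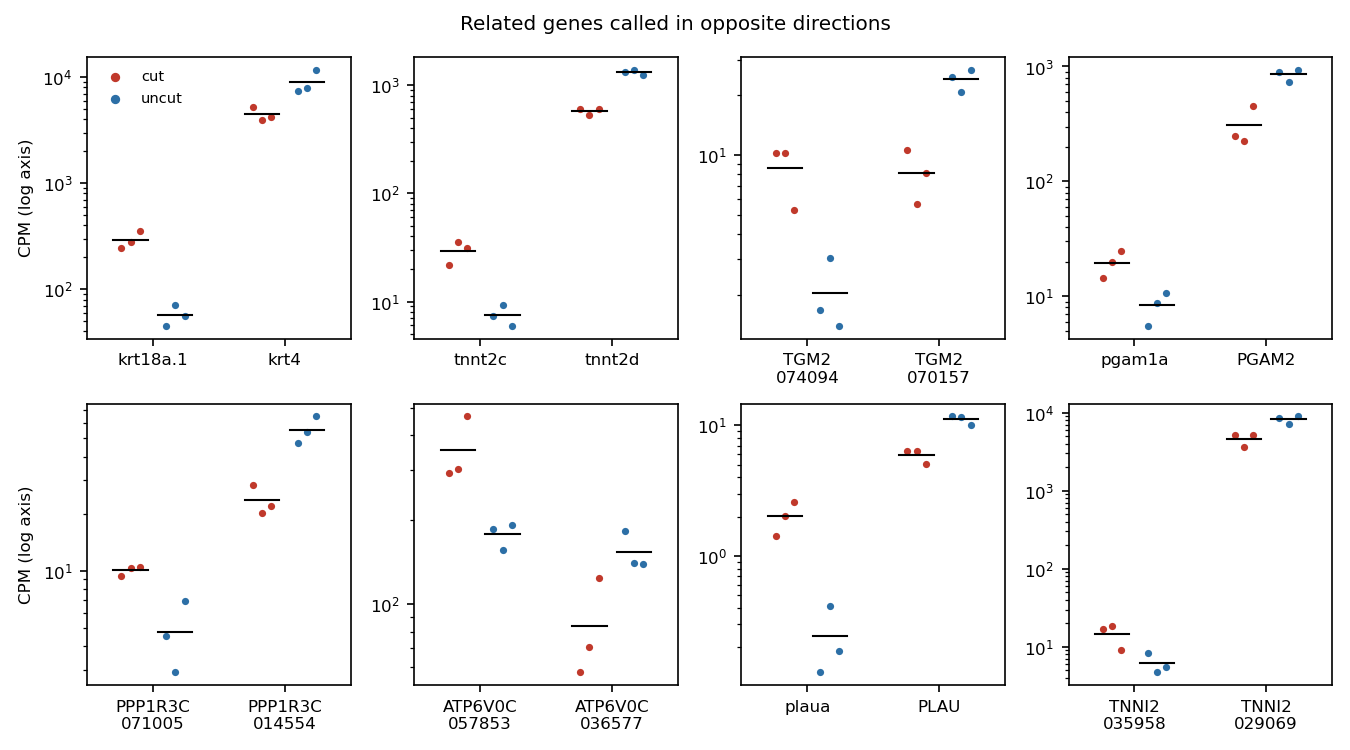
CPM (log axis) of 8 pairs of related genes called in opposite directions, with 3 cut libraries left of 3 uncut ones for each gene and a bar at each mean. In each pair the left gene is higher in cut tails and the right gene lower, and numbers below shared symbols are the last digits of the gene ID.

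The pairs in the plot of related genes were chosen after their values were seen. Among 27 symbols with at least 2 called IDs, 21 moved in 1 direction and 6 in both, namely ATP6V0C, DHRS13, PPP1R3C, SSRP1, TGM2 and TNNI2. TGM2 (ENSDARG00000074094), a transglutaminase, had 10.22, 10.202 and 5.32 CPM in cut tails, against 1.67, 3.06 and 1.40 CPM in uncut tails, and its namesake TGM2 (ENSDARG00000070157) had 10.6, 5.66 and 8.15 CPM in cut tails, against 24.6, 20.6 and 26.6 CPM in uncut tails. tnnt2c (ENSDARG00000032242), a troponin T gene, had 21.9, 35.5 and 31.3 CPM in cut tails, against 7.34, 9.31 and 5.96 CPM in uncut tails, and tnnt2d (ENSDARG00000002988) had 607, 529.7 and 608 CPM in cut tails, against 1329.6, 1385 and 1250.3 CPM in uncut tails. Of the phosphoglycerate mutases of glycolysis, pgam1a (ENSDARG00000005423) had 14.5, 19.9 and 24.5 CPM in cut tails, against 5.53, 8.75 and 10.7 CPM in uncut tails and the muscle form PGAM2 (ENSDARG00000057571) had 248, 226 and 453 CPM in cut tails, against 893, 734 and 932 CPM in uncut tails. The deposited counts hold part-reads, as arise when a read matches several genes, so the levels of near-identical copies are uncertain.

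Of 84 skeletal muscle genes tested, 41 fell and 2 rose, 80 had negative log2 fold changes and the median was -0.60. The increases were tnnt2c and TNNI1 (ENSDARG00000052708), a troponin I gene with 14.9, 13.8 and 12.7 CPM in cut tails, against 5.79, 7.36 and 7.82 CPM in uncut tails, whose call was lost without uncut replicate 1. The calcium buffer pvalb1 (ENSDARG00000037789) had 25471, 24192 and 43047 CPM in cut tails, against 63351, 58325 and 64227 CPM in uncut tails (log2 fold change -1.004 ± 0.23, adjusted p = 0.00755). The sarcomeric actin gene ACTA1 (ENSDARG00000036371) had 463, 419 and 509 CPM in cut tails, against 1009, 1449.6 and 1448 CPM in uncut tails (log2 fold change -1.49 ± 0.18). Myosin heavy chain myhz2 (ENSDARG00000012944) had 16162, 14041 and 13990.3 CPM in cut tails, against 23813, 24517 and 27152 CPM in uncut tails. The actin-binding gene XIRP2 (ENSDARG00000071113) had 148, 122 and 72.6 CPM in cut tails, against 563, 491 and 322 CPM in uncut tails (log2 fold change -2.005 ± 0.27), and the thin filament ruler NEB (ENSDARG00000032630) had 722, 482 and 400.1 CPM in cut tails, against 1226, 1377 and 944 CPM in uncut tails. Among cut libraries, replicate 4 had the highest pvalb1 level, between the other cut libraries and the uncut ones. Of 16 muscle regulator genes, 3 fell (MEF2A and 2 MEF2C genes) and 0 rose, and 14 had negative log2 fold changes. The decreases numbered 1, MEF2A, without cut replicate 3, uncut replicate 1 or uncut replicate 2. The myhz2 call was lost without uncut replicate 2.

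Notochord and cartilage genes gave 15 decreases and 4 increases among 33, with a median log2 fold change of -0.61. All but 1 of 6 collagen IX and XI genes, fibrils of cartilage and notochord sheath, fell, with a median of -1.40. COL11A1 (ENSDARG00000026165) had 527, 377 and 372 CPM in cut tails, against 1439.8, 1379 and 967 CPM in uncut tails (log2 fold change -1.57 ± 0.20), and col9a1b (ENSDARG00000031483) had 313, 270.4 and 375 CPM in cut tails, against 1222, 874 and 597 CPM in uncut tails (log2 fold change -1.49 ± 0.23). chad (ENSDARG00000045071), a cartilage leucine-rich protein, had 28.4, 24.7 and 27.7 CPM in cut tails, against 80.7, 78.6 and 61.99 CPM in uncut tails, and the cartilage transcription factor SOX6 (ENSDARG00000015536) had 158, 142 and 124 CPM in cut tails, against 245, 215 and 243 CPM in uncut tails. COL2A1 (ENSDARG00000069093) had 256, 184 and 163 CPM in cut tails and 1049, 475 and 339 CPM in uncut tails and was not called, and its uncut libraries were widely spread. The increases were snorc, loxl5b, CAVIN1 and tbxta (ENSDARG00000101576), the brachyury gene of notochord progenitors, with 6.02, 6.12 and 7.53 CPM in cut tails, against 3.86, 1.53 and 1.02 CPM in uncut tails. The calls of tbxta (without uncut replicate 2 or 4) and CAVIN1 (without cut replicate 3 or 4 or uncut replicate 2) were lost with 1 library left out, and the increases numbered 2 without uncut replicate 2.

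Neuronal genes fell in part. Of 49, 10 fell and 0 rose, with a median log2 fold change of -0.39 and a summed level of 1991 to 2101 CPM in cut tails, against 2879 to 3192 CPM in uncut tails. The count was 6 without cut replicate 1, uncut replicate 1, uncut replicate 2 or uncut replicate 4, and 5 without cut replicate 3. The summed neuronal levels rest on TMM scaling, with which all genes tested also summed lower in cut tails. Scaling by total counts alone was not tried. SNCG (ENSDARG00000034423), a synuclein, had 121, 129.8 and 178 CPM in cut tails, against 412, 343 and 379.8 CPM in uncut tails (log2 fold change -1.40 ± 0.18). The neurofilament genes nefma and nefmb had log2 fold changes of -1.07 ± 0.16 and -0.98 ± 0.16, and CHAT, which makes acetylcholine, fell 1.43-fold, a call kept without cut replicate 4 but lost without any other single library. Of 22 glial genes, 2 glutamine synthetase genes (GLUL) rose and the myelin genes mbpa and pmp22a fell. The share called was 18.2%, against 10.7% of all genes tested. In GLUL (ENSDARG00000100003) the values were 314, 355 and 347 CPM in cut tails, against 153, 138 and 207 CPM in uncut tails. The call of the other GLUL gene was lost without cut replicate 1, uncut replicate 1 or uncut replicate 2. Decreases among glial genes numbered 5 without cut replicate 4 and 4 without uncut replicate 4 or with DESeq2.

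Of 111 genes of oxidative phosphorylation, 25 fell and 0 rose, while 108 had negative log2 fold changes and the median was -0.39. The share called was 22.5%, all lower, against 10.7% of all genes tested, of which 4.36% were lower. Abundant genes were called more often. Of the 813 genes averaging 100 CPM or more, 26.3% were called, with 57 higher and 157 lower. The median of the list was -0.41 with RLE scaling and -0.40 with upper-quartile scaling, and scaling by total counts alone was not tried. The 13 genes of the mitochondrial genome, with 6 called, had a median of -0.55, and the 98 nuclear genes, with 19 called, had a median of -0.35. MT-ND2, a subunit of complex I, had 5016, 4484 and 5549.9 CPM in cut tails, against 8699, 7327 and 11173 CPM in uncut tails (log2 fold change -0.85 ± 0.19). ATP5F1B, the catalytic subunit of ATP synthase, had 2560.2, 2481 and 3833 CPM in cut tails, against 5204, 4339 and 5439.9 CPM in uncut tails. The ATP5F1B call was lost without cut replicate 1, cut replicate 3, uncut replicate 1 or uncut replicate 4. The number of decreases was 40 with DESeq2, 10 without cut replicate 1, 4 without cut replicate 3, 58 without cut replicate 4, 7 without uncut replicate 1, 16 without uncut replicate 2 and 7 without uncut replicate 4. Among cut libraries, replicate 4 had the highest summed level both of these genes, at 114311 CPM, and of the muscle genes, at 209265 CPM. The part of the muscle decrease in this was not tested. Of 82 ribosomal protein genes, 1 fell and 0 rose, with a median of -0.15. That call, RPL26, was kept without cut replicate 1 and lost without any other single library, while 17 ribosomal protein genes fell without cut replicate 4, 7 with DESeq2 and 4 with limma-voom or upper-quartile scaling. Of 44 glycolysis and hypoxia genes, 6 fell and 3 rose, and 12 fell without cut replicate 4; LDHA, lactate dehydrogenase, had 146, 142 and 191 CPM in cut tails, against 262, 227 and 313 CPM in uncut tails. The LDHA call was lost without cut replicate 3 or uncut replicate 4.

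**Figure D4:**
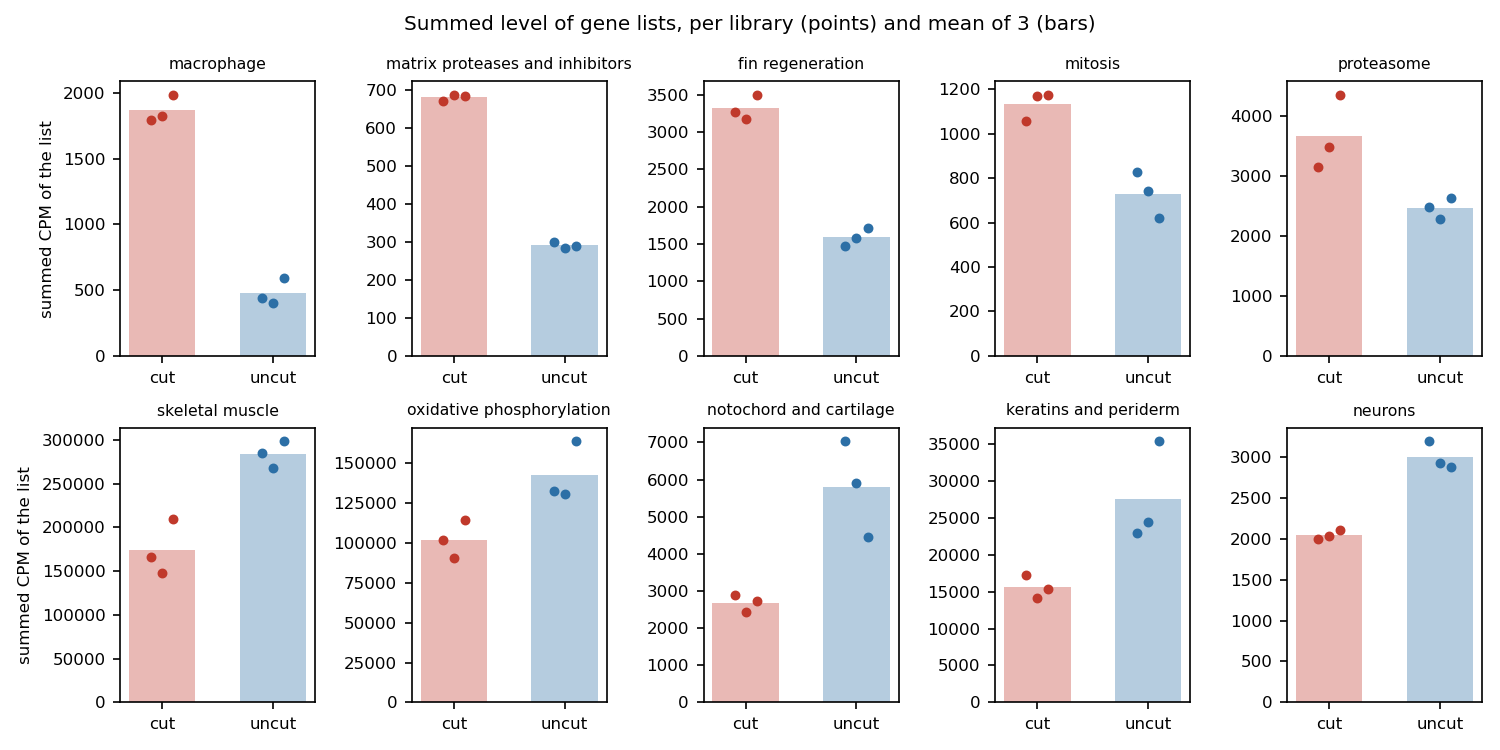
Summed CPM of 10 gene lists in each library (points) with the mean of 3 libraries (bars), cut left of uncut. The 10 were picked from a larger set of lists with earlier results of these data known. With TMM scaling, cut and uncut libraries are separate in all 10, which does not describe the lists as a whole. All genes tested also summed lower in cut tails (828586 to 996236 CPM) than in uncut tails (1072020 to 1200270 CPM). Separation under scaling by total counts alone was not tried. The sums of wound matrix and of heat shock genes, not plotted, overlap between cut and uncut libraries. Muscle genes reach 209265 CPM in the highest cut library against 268343 CPM in the lowest uncut one.

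Developmental signalling genes changed in small numbers. The share called was 7.69% of hedgehog, 4.44% of Wnt, 4.17% of BMP and 2.86% of retinoic acid and Notch genes. These lie under the 10.7% of all genes tested. It was 20.5% of FGF and growth factor genes, 14.3% of TGF-β ligands, receptors and Smads and 28.1% of TGF-β targets. The ligand gene SHH (ENSDARG00000068567), sonic hedgehog, had 37.5, 43.7 and 38.8 CPM in cut tails, against 18.9, 18.8 and 16.8 CPM in uncut tails (log2 fold change 1.14 ± 0.17, adjusted p = 0.000310), the 1 call among 13 hedgehog genes. Of 45 Wnt genes, the receptor gene fzd6 rose and the Wnt inhibitor gene notum2 fell, the last not without uncut replicate 4. Of 39 FGF and growth factor genes, 7 fell and 1 rose, with 4 falling without cut replicate 1 and 2 without cut replicate 3 or uncut replicate 2. The receptor gene FGFR1 (ENSDARG00000011027) had 34.6, 28.47 and 31.5 CPM in cut tails, against 67.3, 49.6 and 58.8 CPM in uncut tails, and the FGF targets etv5a and SPRY2 fell 1.55- and 1.66-fold, neither of them without cut replicate 1, cut replicate 3 or uncut replicate 2. The increase was fgfbp2b (ENSDARG00000038056), an FGF-binding protein, with 19.3, 24.1 and 43.4 CPM in cut tails, against 5.92, 2.50 and 1.12 CPM in uncut tails. Of 14 TGF-β ligands, receptors and Smads, tgfb1a (ENSDARG00000041502), a TGF-β ligand, rose with 41.3, 38.12 and 36.4 CPM in cut tails, against 25.5, 19.03 and 14.4 CPM in uncut tails, as did NRROS, which holds latent TGF-β and whose call was lost in each of the 6 fits that left out 1 library. Of 32 TGF-β target genes 8 rose and 1 fell, and most of the increases are matrix or actin genes given above. The retinoic acid-binding protein gene CRABP1 was the call among 35 retinoic acid and Notch genes, and SMAD5 that among 24 BMP genes, both higher, but SMAD5 was kept without cut replicate 4 and lost without any other single library. The fgfbp2b call was lost without cut replicate 3 or uncut replicate 2, and the TGF-β target decrease without cut replicate 3, uncut replicate 1 or uncut replicate 2.

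Hox genes, whose paralogue groups mark position along the body, gave 1 increase and 3 decreases among 40. The share called, 10%, was near the 10.7% of all genes tested. The 6 genes of group 13, the most posterior, all had positive log2 fold changes of 0.40 to 0.86 with a median of 0.68, and 1 was called, HOXC13 (ENSDARG00000113877), with 9.66, 10.5 and 9.66 CPM in cut tails, against 4.63, 5.97 and 6.33 CPM in uncut tails. The 15 genes of groups 9 to 12 had a median of -0.09 and the 19 of groups 1 to 8 one of -0.27. The HOXC13 call was lost in each of the 6 fits that left out 1 library, with RLE scaling and in limma-voom. HOXC10, HOXC8 and hoxc1a fell, and 1 of them did without cut replicate 3, uncut replicate 2 or uncut replicate 4.

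**Figure D5:**
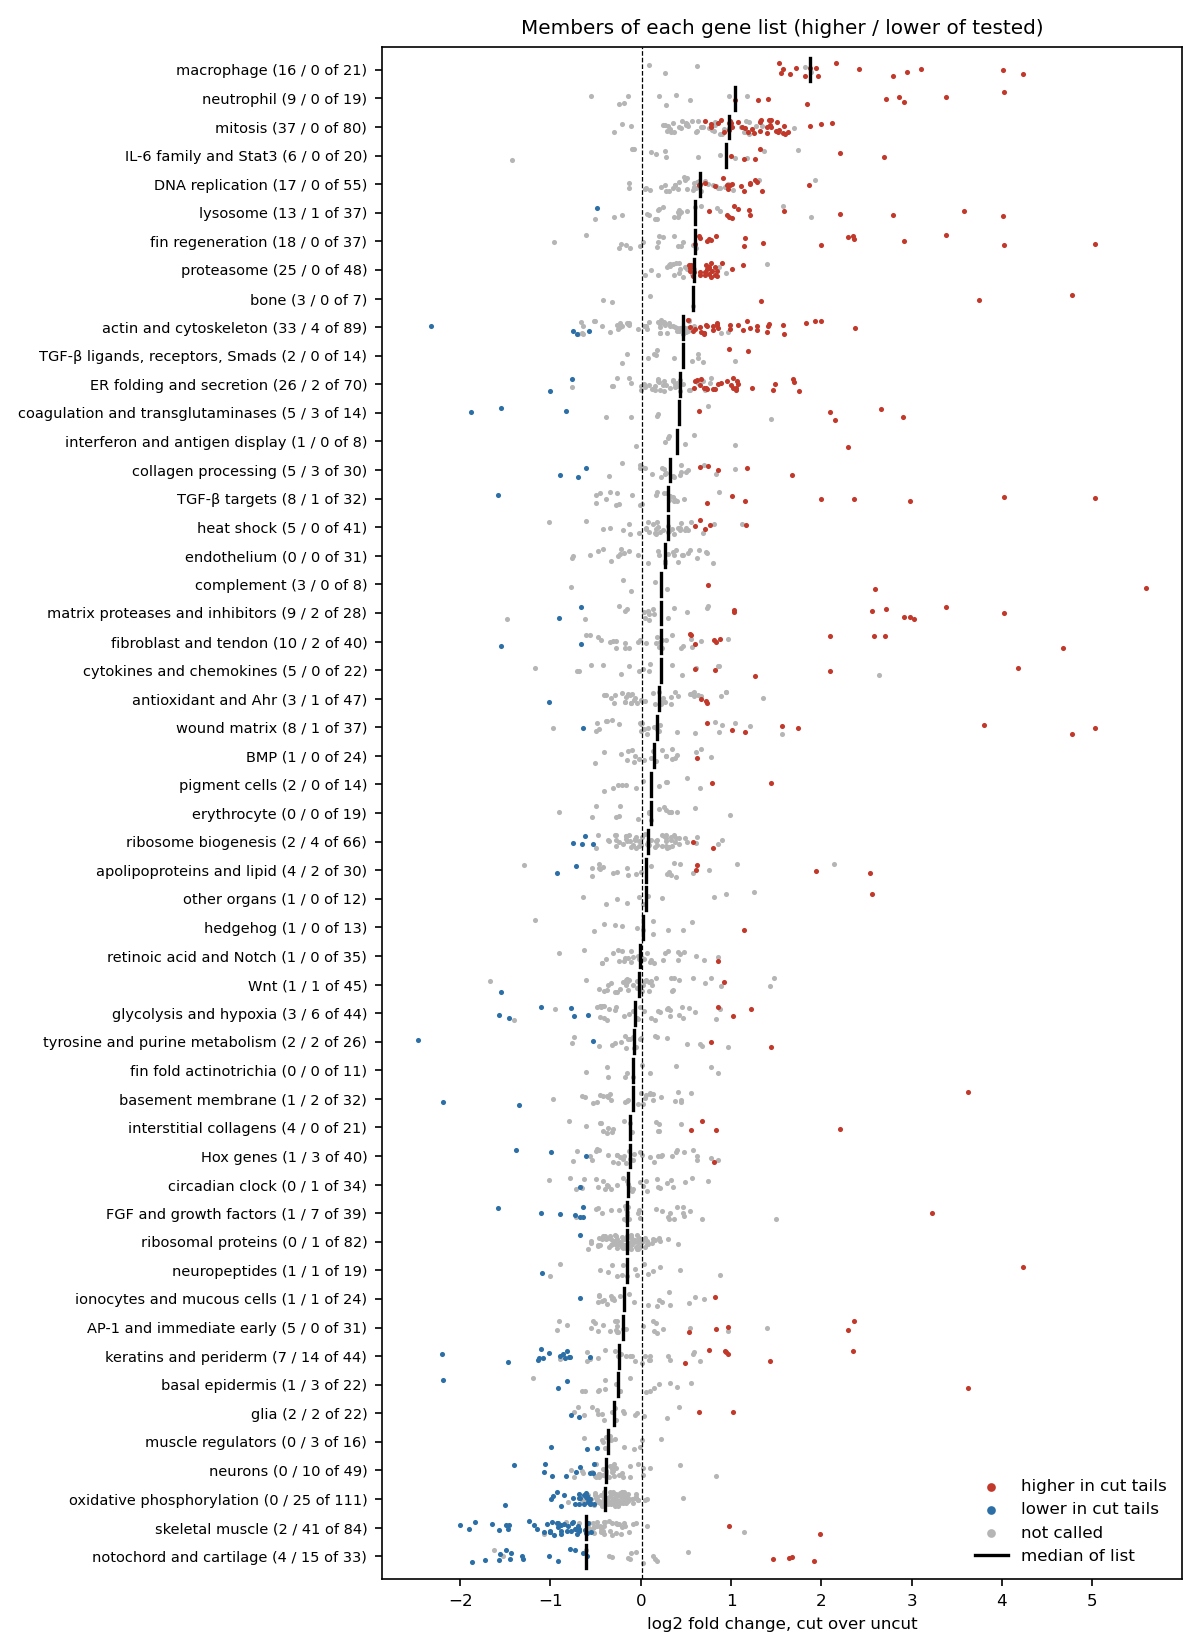
Log2 fold change of cut over uncut tails for the tested members of 53 gene lists (points), ordered by list median (black bars), with the dashed line at the median of all genes tested. Macrophage genes have the highest median, 1.88, and notochord and cartilage genes the lowest, -0.61.

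The excision response was set against that of larvae in SB431542 by an interaction term over all 12 libraries. Of 13978 genes tested, 0 passed at an adjusted p under 0.05 (0%), with 618 at an unadjusted p under 0.05 and a smallest adjusted p of 0.457. Limma-voom also called 0. That no gene passed does not show that the responses were alike.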

How the data were processed

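Poly(A) RNA of 12 pools of larval tails was sequenced with a QuantSeq 3′ FWD kit after TRI Reagent extraction and lithium chloride precipitation, per the labels' protocols, and the 6 DMSO libraries are compared here. The authors deposited estimated counts per Ensembl gene, not normalized, of which 24.5% to 26.7% of the values above 0 in these libraries were not whole. Per the submitters' processing notes the genome build was GRCz11. An aligner or counting program is not given in the sources used. A normalized table was not used. Symbols, printed as their table gives them, matched 23598 of 30258 IDs (77.99%), and 3440 IDs share one.

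Estimated counts were rounded and tested with edgeR 4.0.16 (R 4.3.3), by its robust quasi-likelihood F test, on the 6 DMSO libraries alone, with TMM scaling and filterByExpr. Tests were two-sided, with Benjamini-Hochberg adjustment over 13142 genes and calls under 0.05. Every adjusted p is from this test. Values are CPM in replicates 1, 3 and 4 (cut) and 1, 2 and 4 (uncut), and log2 fold changes are cut over uncut ± SE. The common biological coefficient of variation was 0.212. The method was tested on simulated data. The interaction used all 12 libraries.

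Alternatives were DESeq2 1.42.0, limma-voom (limma 3.58.1), RLE or upper-quartile scaling, other count filters, counts rounded down, 4-group fits of 12 or 11 libraries, a replicate block, and leaving out each library. Leading genes were called genes averaging 20 CPM or more, with no overlap between groups and a symbol without a clone or locus prefix, the 15 largest and smallest fold changes and the 10 largest increases and decreases in CPM. Members of the 53 lists are also named, up to 5 with the smallest adjusted p or where a sentence describes the list. The comparison and the lists were chosen with earlier results of these data known, so lists are described by counts and medians, with no set test. No promoter or protein sequences were used here. Values of some genes are not reported here.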

Additional observations from a re-analysis of the deposited data

Results flagged for a closer look

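The matrix Gla protein gene mgp (ENSDARG00000086189), an inhibitor of mineralization, was singled out because its 3 cut libraries lay above its 3 uncut libraries under DMSO and below them under SB431542. It had 3.17, 3.71 and 15.9 CPM in cut tails, against 0.386, 0.972 and 0.372 CPM in uncut tails with DMSO, and 0.121, 0.0952 and 0.313 CPM in cut tails, against 0.354, 0.444 and 0.605 CPM in uncut tails, with SB431542. The SB431542 levels rest on few reads. The log2 fold changes were 3.74 under DMSO, from the fit of its 6 libraries, and -1.36 under SB431542, from the fit of all 12. Their difference, fitted over 12 libraries, was 5.09 ± 1.15 (log2, SE) and did not pass edgeR's interaction test (adjusted p = 0.951).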

How the results depend on the processing

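The 836 higher and 573 lower genes kept within 1.5 times of those counts under RLE scaling (782 and 641), upper-quartile scaling (827 and 623), DESeq2 (812 and 758), limma-voom (745 and 565), no count filter (1037 and 707), a stricter filter (873 and 634), counts rounded down (839 and 576) and a 4-group fit of 11 libraries (794 and 554). The 4-group fit of all 12 libraries called 470 and 234. It differs from the fit of 11 only in holding uncut SB431542 replicate 4, and how this library lowers the counts was not tested. The same library enters the interaction over 12 libraries. Leaving out 1 library gave 441 to 731 higher and 248 to 776 lower genes. Increases were 59.3% of calls, 51.7% with DESeq2, 66.8% with the 12-library fit and 48.5% without cut DMSO replicate 4. No called gene was called in the opposite direction under any of these settings. Signs without a call were checked only for the 197 named genes, of which 0 reversed and 111 passed in all settings. All settings reuse the DMSO libraries, in which 1393 of the 1409 called genes had no overlap between groups. Opposite calls and reversed signs were therefore hardly possible, and their absence does not measure stability.

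With the replicate block 548 genes were higher and 395 lower, and the interaction gave 0 calls with the block, with 11 libraries and with limma-voom. Numbers 1 and 4 are the ones in both groups, while number 3 is in cut and number 2 in uncut tails only. The blocked fit of the DMSO libraries therefore takes the difference between groups from numbers 1 and 4 alone. Deviations of the pairs with the same number, 1 and 4, correlated at 0.0377 and 0.0353, and those of other pairs at -0.0595 to 0.0380. With so few pairs, these values cannot decide whether libraries of the same number share an origin. Of genes tested, 6.11% were called at a mean under 1 CPM, 5.77% at 1 to 10, 15.13% at 10 to 100 and 26.3% above, with median absolute log2 fold changes of the called genes of 2.81, 1.45, 0.82 and 0.73.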

Other observations

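Of 30 collagen processing genes 5 rose and 3 fell. The increases include the collagen chaperone SERPINH1, at 36.8, 37.1 and 31.2 CPM in cut tails, against 20.7, 21.5 and 15.9 CPM in uncut tails, and numbered 3 without cut replicate 1, uncut replicate 2 or uncut replicate 4 and 2 without cut replicate 3. The decreases numbered 1 without cut replicate 1 and 0 without cut replicate 3 or uncut replicate 1. The crosslinking enzymes LOXL1 and LOXL2 fell 1.52- and 1.86-fold, while loxl5b rose 3.19-fold. Of 40 fibroblast and tendon genes 10 rose and 2 fell, with 6 rising without cut replicate 3 or uncut replicate 1. The mesenchymal homeobox gene PRRX1 (ENSDARG00000033971) had 23.4, 26.99 and 27.6 CPM in cut tails, against 15.3, 12.4 and 14.5 CPM in uncut tails, and the tendon gene TNMD (ENSDARG00000052615) had 103, 87.8 and 100.1 CPM in cut tails, against 138, 159 and 165 CPM in uncut tails. Of 7 bone genes 3 rose (spp1, mgp and RUNX3), and 1, spp1, without uncut replicate 1 or uncut replicate 2. The mgp call was also lost without uncut replicate 4, the RUNX3 call without cut replicate 3 or 4, and the TNMD call without cut replicate 3.

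Of all genes tested 10.7% were called. The share was no larger in the antioxidant (8.51%), ribosome biogenesis (9.09%), ionocyte and mucous (8.33%), neuropeptide (10.5%), circadian (2.94%) and other organ (8.33%) lists. It was larger in the other lists of this paragraph, up to 20% for apolipoprotein and lipid genes. Of 30 apolipoprotein and lipid genes 4 rose and 2 fell. The lipid carrier gene apoc1 (ENSDARG00000092170) had 11.5, 7.88 and 6.20 CPM in cut tails, against 1.93, 0.695 and 1.68 CPM in uncut tails, and the sterol regulators srebf2 and insig1 fell 1.64- and 1.90-fold. Of 47 antioxidant and aryl hydrocarbon receptor genes 3 rose and 1 fell, the last being UCP1 (ENSDARG00000023151), an uncoupling protein, with 149, 189 and 149.8 CPM in cut tails, against 202, 424 and 359 CPM in uncut tails. Of 66 ribosome biogenesis genes 2 rose and 4 fell, and of 26 tyrosine and purine genes 2 rose and 2 fell. The pteridine synthesis gene gch2 (ENSDARG00000099101) of pigment cells had 47.4, 32.3 and 39.8 CPM in cut tails, against 20.2, 15.98 and 8.28 CPM in uncut tails, and with DCT it made up the 2 increases among 14 pigment genes. Of 22 basal epidermis genes 1 rose and 3 fell, of 24 ionocyte and mucous genes 1 rose and 1 fell, and of 19 neuropeptide genes CARTPT rose and chgb fell. Among 34 circadian genes nr1d2a fell, among 8 interferon and antigen genes irf9 rose, and among 12 genes of other organs the glucagon gene gcga rose at a low level, with 1.58, 1.21 and 4.25 CPM in cut tails, against 0.129, 0.556 and 0.465 CPM in uncut tails. Of these calls, apoc1, gch2, CARTPT and chgb passed with any 1 library left out. Single libraries whose omission ended a call were cut replicate 1 for srebf2, cut replicate 3 or uncut replicate 1 for insig1 and nr1d2a, cut replicate 4 or uncut replicate 2 for UCP1, cut replicate 4 or uncut replicate 1 for gcga, each library but cut replicate 3 for DCT, and each but uncut replicates 1 and 2 for irf9. Ribosome biogenesis decreases numbered 0 without cut replicate 3 or uncut replicate 2, 1 without cut replicate 1 and 2 without uncut replicate 4. Increases among lipid genes numbered 2 without cut replicate 3 or uncut replicate 2, and among antioxidant genes 1 without cut replicate 3 or uncut replicate 1. The basal epidermis increase was lost without uncut replicate 2 or 4. Among ionocyte and mucous genes 0 were called without cut replicate 3 or uncut replicate 1, 0 were higher without cut replicate 4 or uncut replicate 2, and 0 were lower without uncut replicate 4. In the tyrosine and purine list, increases numbered 1 without cut replicate 3, uncut replicate 1 or uncut replicate 4, and decreases 1 without any single library but cut replicate 4.

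Chosen after their values were seen, 3 called genes had a count of 0 in every uncut library. They passed the count filter through the cut libraries alone. The chemokine gene ccl19a.2 had 44, 36 and 37 counts in the cut libraries and was at least 28.9-fold higher, taking a limit of 3 counts over the uncut group. By the same limit dicp1.1 was at least 19.3-fold higher and the connexin gene gja13.2 at least 22.6-fold higher. These limits use the mean of the cut libraries and make no allowance for the spread among them.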
